A study of Mus musculus with 6 samples.

Results

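The matrix metalloproteinases and tissue inhibitors described here are 9 genes chosen by symbol, Mmp2, Mmp3, Mmp13, Mmp14, Mmp16, Timp1, Timp2, Timp3 and Timp4, out of 55421 genes in the count table. All 9 were found, and 8 passed the filter on low counts and were tested; Mmp3 had too few counts. The study compared femur bone of C57BL/6 mice aged 12 weeks and labelled WT, 3 control libraries and 3 after phlebotomy, the removal of blood. RNA came from bone fractions enriched for osteocytes, the cells buried in bone matrix. How much blood was taken, and how long before the bones were collected, is not stated in the labels used here. The table's columns are named N1, N2, N4, P1, P2 and P4, so the assignment to groups rests on the initials (P for phlebotomy, N for the rest), and libraries are called by these numbers. Wherever a group is given as a run of 3 values, these follow the order 1, 2, 4. The labels do not say whether each library is a different animal. A p-value here therefore reflects library-to-library spread, which may be technical.

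Matrix metalloproteinases (MMPs) are zinc-dependent proteases, made as inactive precursors, that cut collagens and other proteins outside the cell or at its surface. Tissue inhibitors of metalloproteinases (TIMPs) bind the active site and block it. In bone, MMP13 and MMP14 are collagen-cutting enzymes of the osteoblast lineage, osteocytes use MMPs to remodel the matrix around their lacunae, and MMP9 is an enzyme of osteoclasts and neutrophils. MMP14, held in the cell membrane, activates MMP2 in a complex that needs TIMP2, so these 3 genes work together.

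Libraries held 11219243 to 19015588 gene counts, at which 3 counts, the limit that a count of 0 allows, correspond to a CPM (count scaled to the library total) of 0.158 to 0.267. Levels are CPM scaled with TMM, a correction for library composition, and differences come from the quasi-likelihood test of edgeR over 18838 genes. Of these genes 0.0159% passed a Benjamini-Hochberg adjusted p of 0.05, all of them higher after phlebotomy. Osteocyte markers were abundant, with 8 of 8 detected in every library, and Dmp1, an osteocyte matrix protein, ranged from 11445 to 43051 CPM. Neutrophil, erythroid and osteoclast markers were present in every library too, so each value is a sum over bone and marrow cells. In such samples, fewer cells of a type and less RNA per cell cannot be told apart. On the first principal component, phlebotomy 2 was nearer to the controls, at -7.80 against -51.4 to -16.6 for controls and 54.9 and 40.2 for phlebotomy 1 and 4.

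None of the 8 tested genes passed the threshold over all genes in edgeR, where 0% of all genes passed as lower. None passed in limma-voom, limma-trend or DESeq2 either, where DESeq2 called 0.637% of genes higher and 1.68% lower. Mmp2, Mmp14, Mmp16, Timp1 and Timp2 had phlebotomy means between 0.630 and 0.699 of control in the fit, each at an unadjusted p under 0.05. These are 5 of the 8 tested and none was higher, where 9.42% of all genes were lower at that p, 7.01% higher and 16.4% either. That balance depended on the scaling: of all genes, 1774 were lower and 1321 higher with TMM, 1188 and 1902 with upper quartile scaling, and 832 and 2454 with no scaling beyond the library total. Of the members, 5 were lower with upper quartile scaling and 4 with none. Mmp13, the most abundant of the 9, had a log2 fold change of 0.05 with a wide spread between libraries. For 3 of 8, Mmp14, Timp1 and Timp2, every phlebotomy library lay below every control, as for 11.2% of all genes; phlebotomy lay above for none of the 8 and for 10.1% of all genes, and 21.3% of all genes had groups apart in either direction. The median log2 fold change of the 8 was -0.58, against -0.0028 over all genes tested. These members, and the gene lists further below, were chosen with earlier results of these data known, so their counts are no independent support. Leaving out control 1 or phlebotomy 1 left 3 genes lower at an unadjusted p under 0.05. With no filter on low counts, Mmp2, Mmp14 and Timp2 passed in edgeR (adjusted p 0.0412 to 0.0485), as did 577 genes in all.

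**Figure D1:**
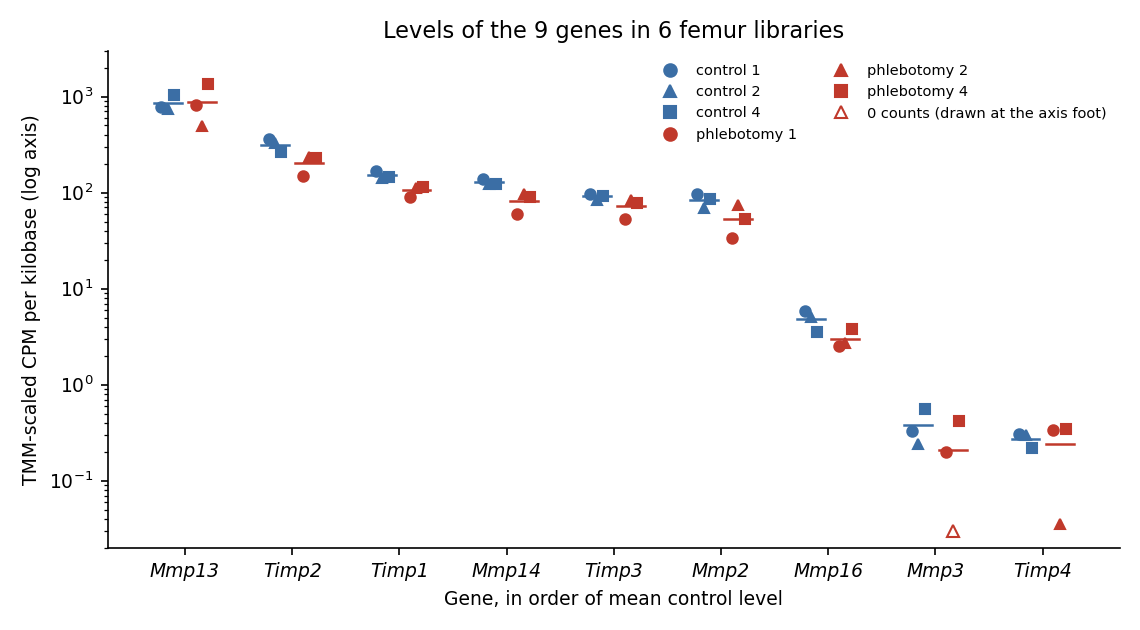
TMM-scaled CPM per kilobase of the longest transcript on a log axis for each gene (x axis, in order of mean control level), with 1 point per library and a line at the mean of 3 libraries. Mmp13 stands highest in both groups, Mmp3 and Timp4 lie below 1, and phlebotomy 1 has the lowest points of Mmp14, Timp1 and Timp2.

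Per kilobase of the longest transcript, the scale used here to compare genes, control levels (mean ± SD, n = 3) ran from 855 ± 168 for Mmp13 down to 0.274 ± 0.0472 for Timp4. Timp2 came second at 317 ± 49.1, before Timp1 at 151 ± 14.4 and Mmp14 at 128 ± 8.67. Timp3 at 91.2 ± 6.74 and Mmp2 at 83.7 ± 14.5 overlapped in both groups. Mmp16 followed at 4.79 ± 1.19, and Mmp3 at 0.377 ± 0.164 overlapped with Timp4. Mmp13, Timp2, Timp1 and Mmp14 took the first 4 places in that order in 6 of 6 libraries, although the phlebotomy range of Mmp14 overlapped with those of Timp1 and Timp3. The place of Mmp14 depends on the length used. All its exons together span 5960 bases against 3238 for the longest transcript, where Mmp2 has 3371 against 3078. Dividing by all exons would lower Mmp14 more than Mmp2, Timp1 or Timp2, so its place holds for the longest transcripts only. Among 27 genes of the MMP and TIMP families, Mmp13 had the highest mean level per kilobase over the 6 libraries, 870 against 260.4 for Timp2, 153 for Mmp8 and 149 for Mmp9. Mmp13 made up 45.2% to 70.1% of the summed level per kilobase of the 9 genes.

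The promoters of the most abundant protease, of a neighbour on its chromosome that was almost silent, and of the pair that ran most closely together are shown here, as the 250 bases before the annotated start (RefSeq, GRCm38.p6; 7 of 9 genes had an entry). Gene coordinates given elsewhere here are from GENCODE, whose starts can differ from those of RefSeq. By the GENCODE coordinates the Timp2 window lies inside the gene (118301069 to 118355740), and the Timp3 window lies partly inside its gene. Capitals mark matches on either strand. The AP-1 motif searched was TGANTCA. For RUNX factors, which drive the osteoblast programme, the letters were AACCACA. The GC box, bound by SP-family factors, was searched as GGGCGG. The TATA box, which places the start of transcription, was searched as TATAAA. The windows are chr9:7272264-7272513 on the plus strand, chr9:7445572-7445821 on the plus strand, chr14:54431348-54431597 on the plus strand and chr11:118355412-118355661 on the minus strand, each read 5′ to 3′ in the direction of the gene.
Mmp13: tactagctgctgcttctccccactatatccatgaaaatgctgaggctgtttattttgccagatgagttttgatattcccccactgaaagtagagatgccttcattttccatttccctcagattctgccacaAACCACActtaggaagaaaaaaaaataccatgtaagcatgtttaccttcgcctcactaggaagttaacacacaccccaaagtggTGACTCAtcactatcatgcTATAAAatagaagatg
Mmp3: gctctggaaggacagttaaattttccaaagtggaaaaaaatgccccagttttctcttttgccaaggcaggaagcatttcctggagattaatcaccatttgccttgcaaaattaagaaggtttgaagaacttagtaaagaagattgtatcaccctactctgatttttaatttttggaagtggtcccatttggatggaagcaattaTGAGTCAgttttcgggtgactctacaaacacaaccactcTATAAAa
Mmp14: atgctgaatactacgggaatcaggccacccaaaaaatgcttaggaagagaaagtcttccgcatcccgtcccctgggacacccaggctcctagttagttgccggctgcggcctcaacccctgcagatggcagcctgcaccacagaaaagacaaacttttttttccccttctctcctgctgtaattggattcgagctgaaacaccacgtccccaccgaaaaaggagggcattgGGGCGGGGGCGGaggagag
Timp2: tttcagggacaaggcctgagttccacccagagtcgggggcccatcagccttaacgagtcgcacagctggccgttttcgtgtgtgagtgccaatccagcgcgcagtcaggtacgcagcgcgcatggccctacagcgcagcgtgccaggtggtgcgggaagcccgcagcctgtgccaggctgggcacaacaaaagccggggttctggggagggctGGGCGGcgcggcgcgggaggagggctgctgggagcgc
The Mmp13 window held an AP-1, a RUNX and a TATA match, and the Mmp3 window an AP-1 and a TATA match. In Mmp14 there were 2 adjacent GC boxes, with 1 in each of Timp1, Timp2 and Timp3 and none of the 4 motifs in Timp4. Over 32851 windows of the same length, 6.75% held the AP-1 letters, 4.40% the RUNX letters, 32.7% a GC box and 12.4% a TATA box. These matches describe letters only, and no motif overlapped another.

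Mmp13, the collagenase that rodents use to cut fibrillar collagen (ENSMUSG00000050578, protein-coding, chromosome 9, 7272514 to 7283331 on GRCm38), was measured at 2088, 1969 and 2799 CPM in the controls. After phlebotomy it was at 2191, 1327 and 3572 CPM. The highest and the lowest of the 6 libraries were both phlebotomy libraries, and the groups overlapped. Group means were 2285 ± 449 and 2363 ± 1132 CPM (SD, n = 3). The log2 fold change was 0.05 ± 0.30 (SE), with a 95% interval of -0.59 to 0.69 and an edgeR adjusted p of 0.951. Its sign was negative in 10 of the 17 other settings tried. Leaving out phlebotomy 4 gave a value of -0.38, and leaving out phlebotomy 2 gave 0.30.

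The library pattern of Mmp13 was set beside that of osteoclast markers, since osteoclasts are bone-resorbing cells. Summed over 6 markers (Acp5, Ctsk, Atp6v0d2, Ocstamp, Dcstamp and Calcr), the level was 795, 1058 and 1521 CPM for controls, with 2255, 759.6 and 2569.7 CPM for phlebotomy. Both Mmp13 and the osteoclast sum were highest in phlebotomy 4 and lowest in phlebotomy 2, and none of the 6 markers was at 0 in any library. Log2 levels centred over the libraries differed in phlebotomy 1 (marker mean 0.42, Mmp13 -0.02) and control 1 (-0.63 and -0.09). All 6 markers had positive log2 fold changes (median 0.55), 0 of them at an unadjusted p under 0.05 in edgeR. Osteoblast markers had another order: 31355, 21786 and 21105 CPM for controls, with 7030.2, 20399.9 and 9599.7 CPM for phlebotomy, summed over 7 markers. Most of the osteoblast sum was Col1a1. The part of these cells in the Mmp13 level was not tested. Over the 6 libraries, the genes closest to Mmp13 in centred log2 level, among 11429 genes with a mean of at least 5 CPM, were Scin, St8sia6 and Gask1b, with root mean square differences of 0.095, 0.10 and 0.15. The spread of Mmp13 itself on that scale was 0.44. The other tested members lay 0.52 to 0.73 from Mmp13.

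Mmp3, stromelysin 1, which cuts proteoglycans and can activate other MMP precursors (ENSMUSG00000043613, chromosome 9, 7445822 to 7455975), had 6, 8 and 15 counts in the controls and 6, 0 and 12 counts in the phlebotomy libraries. These correspond to 0.592, 0.437 and 1.01 CPM and to 0.359, 0 and 0.758 CPM. The count of 0 in phlebotomy 2, out of 15070173, allows up to 0.199 CPM. The ratio of phlebotomy to control counts was 0.615, with a 95% exact counting interval of 0.322 to 1.15, so no difference was detectable at this depth. Counting intervals cover counting error only.

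Mmp14 encodes the membrane-bound collagenase that also activates MMP2 (ENSMUSG00000000957, chromosome 14, 54431612 to 54445364). It stood at 448, 402 and 397 CPM in the controls and at 193, 311 and 294 CPM in the phlebotomy libraries. Every phlebotomy library was below every control, and phlebotomy 1 was the lowest. The log2 fold change was -0.64 ± 0.20 (SE), with the smallest p of the 8 (edgeR unadjusted p 0.00522, adjusted p 0.183).

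Mmp2, a gelatinase that degrades denatured collagen and basement membrane (ENSMUSG00000031740, chromosome 8, 92827291 to 92853420), was measured at 300.2, 211 and 261 CPM in the controls. After phlebotomy it was at 103, 226 and 165 CPM. Phlebotomy 2 lay inside the control range and the other phlebotomy libraries below it. The log2 fold change was -0.65 ± 0.24 (SE, edgeR adjusted p 0.232). It was -0.37 without phlebotomy 1, and -0.98 without phlebotomy 2, where Mmp2 was the 1 member to pass (edgeR adjusted p 0.0397). Without that library 2.99% of all genes passed as lower and 1.75% as higher.

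Mmp16, a second membrane-type MMP with activity on MMP2 (ENSMUSG00000028226, chromosome 4, 17852893 to 18119145), stood at 29.3, 25.2 and 17.5 CPM in the controls and at 12.7, 13.7 and 18.9 CPM in the phlebotomy libraries. Groups overlapped through control 4 and phlebotomy 4. Its log2 fold change of -0.67 ± 0.23 (SE, edgeR adjusted p 0.209) was close to that of Mmp14, at a level per kilobase of 4.79 against 128 in controls.

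Timp2 was the most abundant inhibitor (ENSMUSG00000017466, chromosome 11, 118301069 to 118355740, minus strand). It stood at 1333, 1215 and 976 CPM in the controls and at 557, 868 and 846 CPM in the phlebotomy libraries. All phlebotomy libraries lay below all controls. The log2 fold change was -0.63 ± 0.22 (SE, edgeR adjusted p 0.206). Cep295nl overlaps Timp2 on the same strand but shares none of its exon bases, and had 203 to 384 counts against 9299 to 22234 for Timp2.

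Timp1, a soluble inhibitor with growth-promoting activity on erythroid cells (ENSMUSG00000001131, chromosome X, 20870166 to 20874735), stood at 148, 125 and 127 CPM in the controls and at 80.0, 98.6 and 101 CPM in the phlebotomy libraries. Again the groups did not overlap. The log2 fold change was -0.52 ± 0.16 (SE, edgeR adjusted p 0.196).

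Timp3, the inhibitor that binds to matrix and also blocks ADAM and ADAMTS proteases (ENSMUSG00000020044, chromosome 10, 86300372 to 86349506), stood at 456, 395 and 440.4 CPM in the controls and at 252, 399 and 364 CPM in the phlebotomy libraries. Phlebotomy 2 reached the control range. Its log2 fold change was -0.35 ± 0.19 (SE, edgeR adjusted p 0.382) and -0.15 without phlebotomy 1. Timp4 (ENSMUSG00000030317, chromosome 6, 115241892 to 115252205, minus strand) was near the floor, with 17, 30 and 18 counts in the controls and 31, 3 and 30 in the phlebotomy libraries. The ratio of its summed counts was 0.976, with a 95% exact counting interval of 0.680 to 1.40, and the log2 fold change turned to 0.28 without phlebotomy 2.

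Timp1, Timp3 and Timp4 lie inside the genes of the synapsins Syn1, Syn3 and Syn2, nerve terminal proteins, on the opposite strand. The library kit does not mark strand, so reads of the paired genes cannot be told apart where exons overlap. Timp1 and Syn1 share none of the 888 exon bases of Timp1, and Timp3 and Syn3 share 1733 of 8144. Syn3 had 5 to 27 counts against 4208 to 7229 for Timp3. Timp4 and Syn2 share 90 of 5894 exon bases, and Syn2 had 0, 8 and 10 counts in the controls and 4, 4 and 6 in the phlebotomy libraries. Syn2 was below Timp4 in 5 of 6 libraries and above it in phlebotomy 2.

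**Figure D2:**
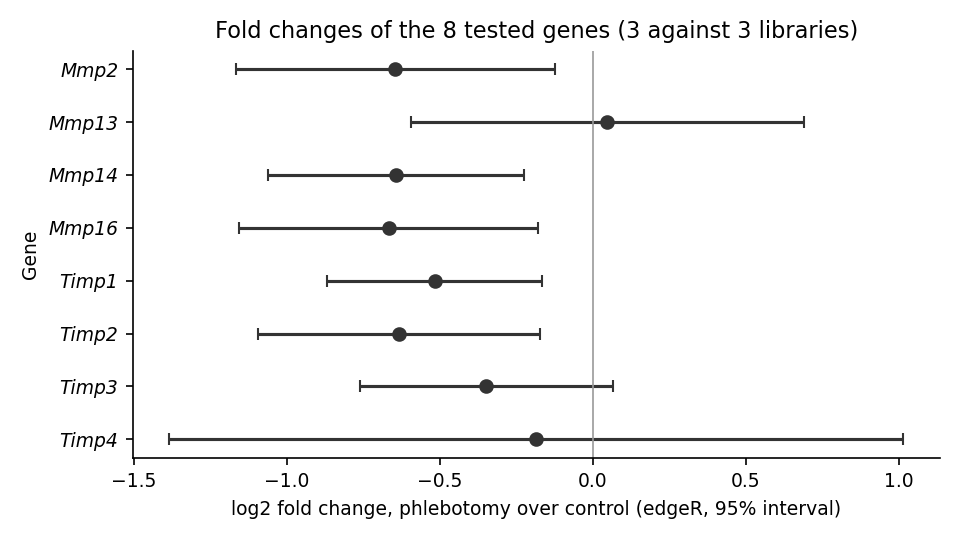
Log2 fold change of phlebotomy over control (x axis) for the 8 tested genes, as edgeR estimate with its 95% interval from 3 against 3 libraries. The intervals of Mmp2, Mmp14, Mmp16, Timp1 and Timp2 lie below 0 before adjustment over all genes, and those of Mmp13, Timp3 and Timp4 span it.

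Across the 6 libraries, Mmp2, Mmp14, Mmp16, Timp1, Timp2 and Timp3 were each lowest in phlebotomy 1. Mmp14 and Timp2 were the closest pair, with a root mean square difference of 0.098 in centred log2 level, against spreads of 0.40 and 0.41 of the genes themselves. Timp1 with Timp3 and Timp1 with Mmp14 came next, at 0.14 each. The nearest genes with a symbol of their own, leaving out unnamed and predicted ones, were for Timp2 Bhlhe40 (0.035), Stau1 (0.050) and Arf3 (0.055), and for Mmp14 Stat3 (0.044), Ubap2 (0.053) and Lor (0.057). For Timp1 they were Nup153, Rnf220 and Tex264 (0.039 to 0.049), and for Timp3 Atrnl1, Mbtps1 and Magee1 (0.038 to 0.054). Mmp2 had Arhgef10l, Abtb2 and Cdr2l at 0.069 to 0.10, and Mmp16 had Tmed8, Gprasp1 and Slc36a4 at 0.079 to 0.10. For Timp4 the nearest named genes, Mst1r, Hook1 and Mttp, were 0.48 to 0.55 away. Each likeness rests on 6 values from the same libraries.

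Marker levels of bone cells in the same libraries are given beside these. The summed level of 7 osteoblast markers was 21105 to 31355 CPM in controls and 7030.2 to 20399.9 CPM after phlebotomy, with 7 of 7 log2 fold changes negative. Most of that sum was Col1a1, at 18056 to 26398 CPM in controls and 4995 to 16539 CPM after phlebotomy. With equal weight per marker, the mean centred log2 levels overlapped between groups (phlebotomy 2 at 0.20, control 4 at 0.08). The sum of 6 periosteal and fibroblast markers was 2325 to 3140.4 CPM and 1363 to 2056 CPM, and that of 8 osteocyte markers 22838 to 48838 and 13784 to 24936 CPM. Most of the osteocyte sum was Dmp1, at 18771 to 43051 CPM in controls and 11445 to 22234 CPM after phlebotomy. None of these markers was at 0 in any library. The summed level of 7 chondrocyte markers, most of it Col2a1, overlapped between groups. It was 303 to 871 CPM in controls and 237 to 489 CPM after phlebotomy. Of these 7, 6 were tested, all with negative log2 fold changes (median -0.86). In edgeR, 4 of the 6 had an unadjusted p below 0.05, against 9.42% of all genes in that direction. For 3 of the 6, every phlebotomy library lay below every control, against 11.2% of all genes. The part of these cells in the lower Mmp and Timp means was not tested. Log2 levels centred over the 6 libraries were lowest in phlebotomy 1 for Mmp2 (-0.96), Mmp14 (-0.77), Timp2 (-0.74) and the marker means of chondrocytes (-0.75), osteoblasts (-0.73), osteocytes (-0.51) and periosteal cells (-0.41). The means of B cell markers (-0.36) and endothelial markers (-0.20, with phlebotomy 4 also at -0.20) were lowest there too. Those of the remaining cell types looked at, such as osteoclasts and neutrophils, were lowest in other libraries.

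**Figure D3:**
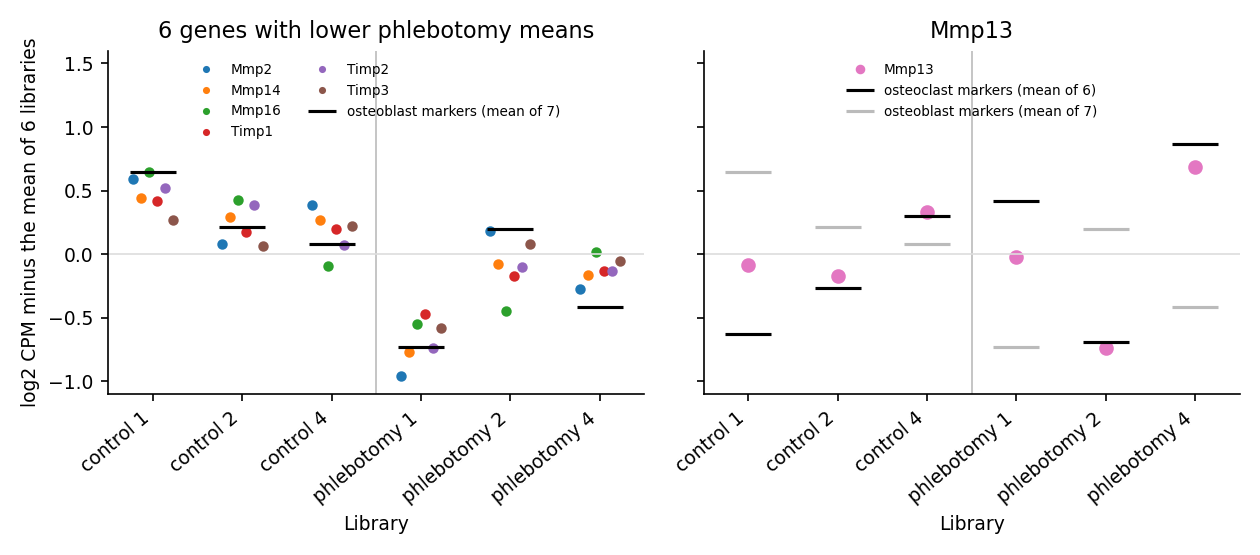
Log2 CPM minus the mean of 6 libraries (y axis) in each library (x axis), for 6 genes beside the mean of 7 osteoblast markers on the left, and for Mmp13 beside the means of 6 osteoclast and 7 osteoblast markers on the right. The 6 genes and the osteoblast markers are lowest in phlebotomy 1, while Mmp13 and the osteoclast markers are lowest in phlebotomy 2 and highest in phlebotomy 4.

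Ratios within a library set each protease against an inhibitor independently of library scaling. They are given as values only, and their differences between groups were not tested. The size of a ratio depends on the transcript length used, while the log2 group difference of a single gene pair does not. The ratio of Mmp14 to Timp2, per kilobase, was 0.385, 0.379 and 0.466 for controls, with 0.398, 0.411 and 0.399 for phlebotomy. Group means were 0.410 ± 0.0488 and 0.402 ± 0.00747 (SD, n = 3), while the fitted phlebotomy level was 0.641 of control for Mmp14 and 0.644 for Timp2. The ratio of Mmp2 to Timp2 overlapped as well, at 0.268 ± 0.0565 and 0.257 ± 0.0496. Mmp14 to Timp3 was 1.43, 1.48 and 1.32 for controls against 1.12, 1.14 and 1.18 for phlebotomy, without overlap.

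The ratio of Mmp13 to Timp1 was 4.65, 5.20 and 7.27 for controls, with 9.05, 4.44 and 11.6 for phlebotomy. Phlebotomy 1 and 4 lay above the controls and phlebotomy 2 below them. The summed level of the 4 inhibitors was 501 to 624 CPM per kilobase in controls and 294 to 430.2 after phlebotomy, without overlap. Most of it was Timp2, and Timp3 and Timp4 alone each overlapped between groups. For the 5 proteases the summed level was 935 to 1259 and 669 to 1485, most of it Mmp13. The summed ratio of proteases to inhibitors was 1.95 ± 0.491 in controls and 2.73 ± 1.04 after phlebotomy, a difference smaller than the spread of the phlebotomy libraries.

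**Figure D4:**
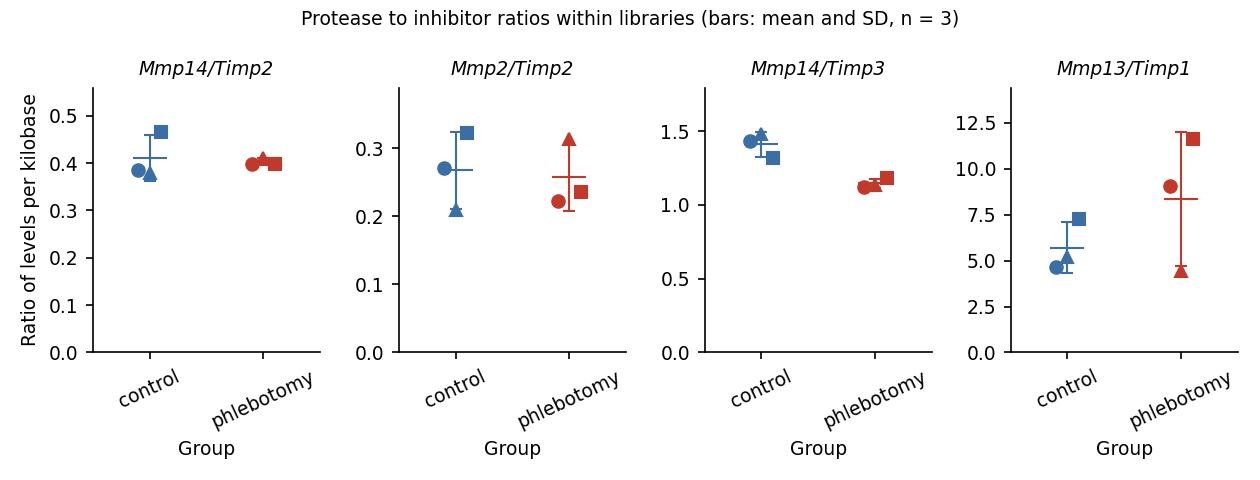
Ratios of levels per kilobase (y axes, each from 0) in control and phlebotomy libraries, with 1 point per library and bars for mean and SD of 3. Mmp14 to Timp2 stays between 0.379 and 0.466 in all 6 libraries, and Mmp13 to Timp1 spans 4.44 to 11.6 within the phlebotomy group.

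Log2 fold changes of the rest of the MMP family lay on both sides of 0. Of 18 other MMP genes, 11 were tested; 0 passed in edgeR or DESeq2, and at an unadjusted p under 0.05 there was 1 higher and 1 lower, against 7.01% and 9.42% of all genes. Their median log2 fold change was 0.06. Mmp12, the macrophage elastase, stood at 35.2, 34.2 and 28.9 CPM in the controls and at 44.9, 39.9 and 46.8 CPM in the phlebotomy libraries (log2 fold change 0.42, edgeR adjusted p 0.254). All its phlebotomy libraries lay above the controls, as they did for 2 of the 11 tested genes and 10.1% of all genes. For Mmp19 the log2 value was -0.56 (edgeR adjusted p 0.299), for Mmp23 -0.24 and for Mmp10 0.44. The neutrophil collagenase Mmp8 and the gelatinase Mmp9, named here after their values were seen, had log2 fold changes of 0.02 and 0.04. Mmp9 ranged from 252 to 769 CPM in controls and from 367 to 618 CPM after phlebotomy.

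Among 16 genes that activate, dock, clear or further inhibit MMPs, 15 were tested and 0 passed in edgeR, with 2 higher and 4 lower at an unadjusted p under 0.05, against 7.01% and 9.42% of all genes. Lrp1, the receptor that clears MMP and TIMP complexes from outside the cell, had 118 ± 19.4 CPM in controls against 73.3 ± 11.1 in the phlebotomy group (SD, n = 3), a log2 fold change of -0.69 ± 0.18 (SE; adjusted p 0.160, edgeR). It passed in DESeq2, the 1 gene of the list to do so (adjusted p 0.0396), where 1.68% of all genes passed as lower. Furin, the convertase that activates MMP14, stood at 252 ± 7.76 CPM in controls and 158 ± 43.6 in the phlebotomy group (-0.68 on the log2 scale, adjusted p 0.172 in edgeR). Groups overlapped for neither gene. Of the 15 tested, 4 had every phlebotomy library below every control and 3 above, against 11.2% and 10.1% of all genes. A2m, a general protease trap, and Plg, the precursor of plasmin, were scarce, at 1.81 ± 1.03 and 3.78 ± 0.737 CPM and at 0.248 ± 0.163 and 0.788 ± 0.200 CPM in control and phlebotomy. Their log2 fold changes were 1.11 and 1.62 (edgeR adjusted p 0.222 and 0.237), and for both genes all phlebotomy libraries lay above the controls.

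The ADAM and ADAMTS proteases, relatives that TIMP3 can inhibit, gave 24 tested genes of 26. None passed in edgeR, and the median log2 fold change was -0.18. At an unadjusted p under 0.05, 1 of the 24 was higher and 4 were lower, against 7.01% and 9.42% of all genes. Adamts5 and Adamts1, which cut aggrecan and versican, had log2 fold changes of -0.69 and -0.65 (edgeR adjusted p 0.139 and 0.172), and both passed in DESeq2 (adjusted p 0.0230 and 0.0496; 1.68% of all genes passed there as lower). Adamts5 had 52.0 ± 5.25 CPM in controls and 32.2 ± 2.20 after phlebotomy, without overlap. Of the 24, 3 had all phlebotomy libraries below the controls and 0 above, against 11.2% and 10.1% of all genes. Adam28 and Adamts17 followed at 1.06 and -0.62.

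Of 12 genes whose proteins MMPs cut, 12 were tested, 11 had negative log2 fold changes, 0 passed in edgeR and 8 had a lower level with p under 0.05 before adjustment, against 9.42% of all genes. Col1a1, the main collagen chain of bone, stood at 20919 ± 4746 CPM in controls and 9524 ± 6160 in the phlebotomy group (SD, n = 3), or -1.14 on the log2 scale (adjusted p 0.204 in edgeR). Col3a1 had a log2 fold change of -1.06, Tgfb1, a growth factor stored in matrix, of -0.78, and Fn1, fibronectin, of -0.60. Tgfb1 passed in DESeq2 (adjusted p 0.0432), as did 1.68% of all genes as lower. The list median was -0.71, below the member median of -0.58. The list was drawn up with earlier results of these data known, so its counts are no independent support. Col1a1, Dmp1, Col2a1, Acan, Col3a1 and Dcn are also among the cell type markers above, so the sets are not separate.

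Of 18 transcription factors that act on MMP and TIMP promoters, 18 had negative log2 fold changes, with a median of -0.50. Among them 12 were lower at an unadjusted p under 0.05 and 10 had groups that did not overlap, against 9.42% and 11.2% of all genes. In edgeR 0 passed, and in DESeq2 4 passed as lower, as did 1.68% of all genes. This list, too, was drawn up with earlier results of these data known, so its counts are no independent support. Runx2, Sp7 and Sox9 in it are also among the osteoblast or chondrocyte markers above. Egr1 and Fosb, immediate early factors, had log2 fold changes of -1.04 and -1.01 (edgeR adjusted p 0.139 for both). Runx2, the master factor of osteoblasts, stood at 62.5 ± 9.21 CPM in controls and 40.3 ± 3.44 in the phlebotomy group (-0.63 on the log2 scale, adjusted p 0.162 in edgeR), and Sox9 had -0.73. Fosb is a subunit of AP-1 and Runx2 binds the RUNX motif, both of which have a match in the Mmp13 window. The Mmp13 level itself overlapped between groups. Any link of these factors to the Mmp13 level was not tested.

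**Figure D5:**
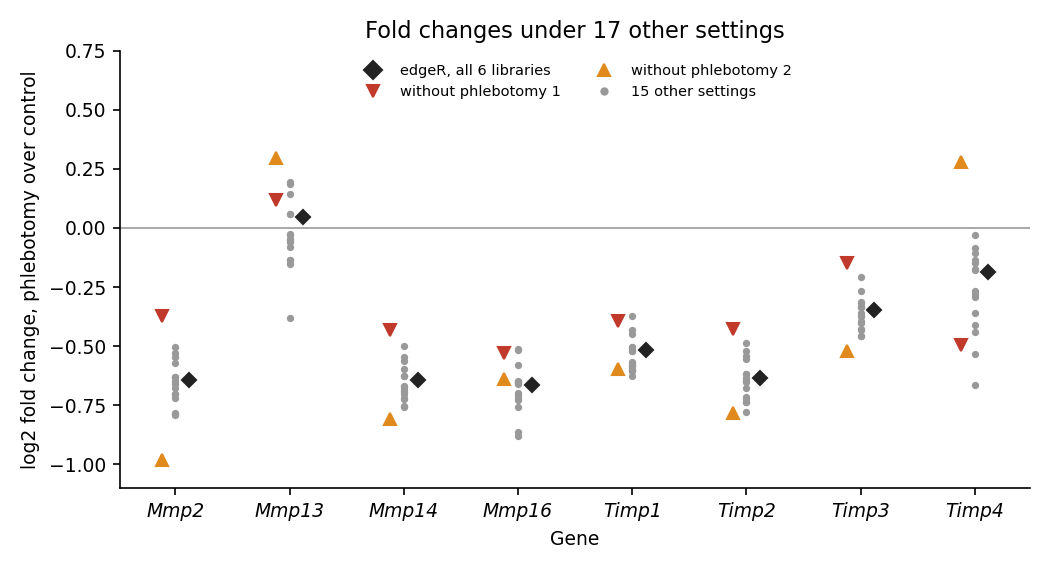
Log2 fold change of phlebotomy over control (y axis) for each tested gene under edgeR with all 6 libraries (diamonds), without phlebotomy 1 or 2 (triangles) and under 15 other settings (dots). Mmp2, Mmp14, Mmp16, Timp1, Timp2 and Timp3 stay below 0 in all 17 alternatives, while Mmp13 and Timp4 cross 0.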

How the data were processed

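RNA-seq of 6 femur libraries was used. The authors deposited raw gene counts (55440 rows, 19 of them transgene or vector sequences with 0.00278% to 0.0284% of counts, left out here), a filtered copy (28533 rows) and a signal table of TMM-scaled CPM, per the file names. Per the labels' protocols, libraries were made with Nextera XT and read as 126 bp pairs. Builds GRCm38.p3 and mm10 and the tools STAR (2.7.3a, 2.5.2a), limma, edgeR and DESeq2 appear in the submitters' processing notes; the counting program is not given in the sources used here.

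Genes were filtered with filterByExpr (minimum count 10, 18838 kept), scaled by TMM and compared in edgeR 4.0.16 (R 4.3.3; robust quasi-likelihood fit, group as the only term), with Benjamini-Hochberg adjustment at 0.05. SEs and 95% intervals were derived from the F statistic. DESeq2 1.42.0 and limma 3.58.1 were alternatives, beside other scalings and filters, a replicate block, removal of a GC and length trend, and leaving out each library. The fit was tried on simulated counts with 100 genes changed 2-fold and 100 changed 4-fold. It recovered 49% and 95% of them at the threshold, and 16 of 160 calls were false. Changes as small as those fitted for the members were not simulated. Coordinates and transcript lengths came from GENCODE M21 (GRCm38). Named genes were the 9 members, the 4 of each list with the smallest p, and the 3 genes nearest to each member, passing over unnamed and predicted genes (1 for Timp2 and 1 for Timp4). The members and lists were chosen with earlier results of these data known. Plots used Python 3.11.15 and matplotlib 3.10.9.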

Additional observations from a re-analysis of the deposited data

How the results depend on the processing

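Mmp2, Mmp14, Mmp16, Timp1, Timp2 and Timp3 had negative log2 fold changes in all 17 alternatives, and the median of the 8 tested members ran from -0.67 to -0.41. With no scaling beyond the library total the median of all genes was 0.14 and that of the members -0.43. The log2 fold change of Mmp13 turned negative with the GC and length trend removed (-0.15), over the genes of the authors' filtered table (-0.058), in limma-trend with pseudocounts of 0.5 and 1 (-0.14 in each), in limma-voom (-0.050), with no filter on low counts (-0.026), with the replicate block (-0.048) and without control 1, control 2 or phlebotomy 4 (-0.031, -0.082 and -0.38; range with a library left out -0.38 to 0.30), and that of Timp4 turned to 0.28 without phlebotomy 2 (range -0.53 to 0.28); the cause was not tested.

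No member passed with all 6 libraries in edgeR, 3 passed with no filter on low counts (Mmp2, Mmp14 and Timp2, adjusted p 0.0412 to 0.0485), and 0 to 1 with a library left out. The count at an unadjusted p under 0.05 was 3 to 6 members lower with a library left out, 3 without control 1 and without phlebotomy 1. Over all genes, 3 passed in edgeR, 284 in DESeq2, 20 over the genes of the authors' filtered table, 0 in limma-voom and 577 with no filter. With a library left out it was 0 (phlebotomy 1) to 963 (phlebotomy 2), 14 without control 2 and 7 without control 4. At an unadjusted p under 0.05, 1774 genes were lower and 1321 higher, 832 and 2454 with no scaling, 1188 and 1902 with upper quartile scaling, with 801 to 2937 lower when a library was left out (1170 without control 1). The alternatives for counts at an unadjusted p were chosen after seeing the data. In DESeq2, 1.68% of all genes passed as lower and 0.637% as higher. It called 1 activator or inhibitor, 2 ADAM or ADAMTS genes, 1 substrate and 4 transcription factors, all as lower. With no filter these counts were 2, 3, 5 and 4, over the authors' filtered genes 1 transcription factor passed, and with a library left out they ran from 0 to 3, 0 to 3, 0 to 4 and 0 to 8, the upper values all without phlebotomy 2.

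The replicate block, by the number in the column names, called 0 members and gave a member median of -0.58. No pairing by number was seen, though 3 libraries per group cannot exclude it. Deviations from the group means correlated at -0.11, -0.11 and -0.062 for equal numbers and at -0.024 to 0.11 for unequal numbers. Depth limits Mmp3 and Timp4, whose counts per library were at most 15 and 31.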
